A study of Mus musculus with 24 samples.

Results

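DehydroLCA (dehydrolithocholic acid) was compared with IsoLCA (isolithocholic acid) in mouse CD8+ T cells activated in vitro, by RNA-seq of 3 libraries per acid, 6 of the 24 libraries of a series on bile acids and T cells. The members were chosen by the sample titles, and no measured value entered the choice. Each acid was given at 50 µM. The series also holds LCA (lithocholic acid), IsoAlloLCA and UDCA at 50 µM, TCDCA and TCA at 100 µM, and Control cells, with 3 libraries each, and these are used here to place the pair. Exposure lasted 24 h in the design text, while the treatment protocol gives it as overnight. The labels do not give the strain, sex or age of the mice, the way the cells were activated, or a solvent for Control. Nor do they say whether replicate libraries stem from different mice or culture wells, so p-values measure only the spread between these libraries, which may be technical.

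Bile acids are made from cholesterol in the liver and are altered by gut bacteria, which turn primary acids into secondary ones such as LCA. LCA, DehydroLCA and IsoLCA share the steroid skeleton and differ at the same carbon of its A ring. LCA has a hydroxyl there, IsoLCA has that hydroxyl in the opposite orientation, and DehydroLCA has a ketone in its place and is the intermediate when bacteria turn LCA into IsoLCA. Secondary bile acids are known ligands of nuclear receptors such as the farnesoid X and vitamin D receptors. In CD4+ T cells, DehydroLCA and IsoLCA are known for restraining the type 17 helper programme. The comparison asks at which genes exchanging the hydroxyl of IsoLCA for the ketone of DehydroLCA altered expression in CD8+ T cells at the same dose.

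The 6 libraries held 32435983.5 to 41024340.5 counts in genes. Reads in exons made up 82.6% ± 0.757 of the library total with DehydroLCA and 83.3% ± 1.4 with IsoLCA (SD, n = 3 each). Defining markers of CD8+ T cells were abundant in every library: Cd3d, Cd3e, Cd3g, Cd247, Cd8a, Cd8b1, Lck and Thy1 summed to 4200 to 4370 CPM (counts scaled to library size) with DehydroLCA and 4430 to 4590 CPM with IsoLCA, and 0 of the 8 markers passed edgeR's test (3 had an unadjusted p under 0.05, and DESeq2 called Cd3g). Markers of B cells summed to 5.24 to 5.74 CPM with DehydroLCA and 5.01 to 5.56 CPM with IsoLCA, those of myeloid cells to 1.41 to 1.85 CPM with DehydroLCA and 1.41 to 1.89 CPM with IsoLCA, and those of NK cells to 1.76 to 2.25 CPM with DehydroLCA and 1.76 to 2.34 CPM with IsoLCA. The 4 markers of CD4+ and regulatory T cells summed to 57.8 to 60.9 CPM with DehydroLCA and 50.7 to 55.4 CPM with IsoLCA, most of it Zbtb7b. Foxp3, a marker of regulatory T cells, had 8.17 to 8.81 CPM with DehydroLCA and 8.27 to 9.07 CPM with IsoLCA. The 5 stromal and erythroid markers summed to 40.7 to 44.4 CPM with DehydroLCA and 39.1 to 41.3 CPM with IsoLCA, mostly Pecam1, which T cells also express, and Alb was at 0. In a principal component analysis of the 6 libraries the first component, with 38% of the variance, separated the acids. The second, with 26.4%, set IsoLCA replicate 2 apart from the other 5, and results that change without that library are given both ways. In bulk RNA, fewer cells of a type and less RNA per cell cannot be told apart.

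Of 13044 genes tested, 218 (1.67%) differed between the acids at an adjusted p under 0.05 in edgeR's quasi-likelihood test, with Benjamini-Hochberg adjustment over all tested genes. With DehydroLCA 156 genes (1.2%) were higher and 62 (0.475%) were lower. Most differences were small: 42 of the 218 (0.322% of tested genes) exceeded 1.5-fold, 36 of them higher (0.276%) and 6 lower (0.046%). The median fold of the called genes was 1.28 for those higher and 1.19 for those lower, and the median log2 fold change of all tested genes was 0.01. An unadjusted p under 0.05 was reached by 1647 genes (12.6%). The 3 libraries of DehydroLCA did not overlap the 3 of IsoLCA at any of the 218, against 19.6% of all tested genes. The 218 were chosen by a test on these same libraries, so their lack of overlap adds no support. In what follows, levels are CPM (mean ± SD over 3 libraries where not given per library), differences are log2 fold changes ± SE of DehydroLCA minus IsoLCA unless Control is named, and a gene is said to rise or fall only where it was called. Counts of calls in gene lists are to be read beside the 1.67% called over all tested genes. The count of calls depended on single libraries. It was 126 without DehydroLCA replicate 1, 136 without replicate 2, 98 without replicate 3, 106 without IsoLCA replicate 1 and 163 without IsoLCA replicate 2. Beyond 1.5-fold, 27 genes were called without DehydroLCA replicate 3.

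**Figure D1:**
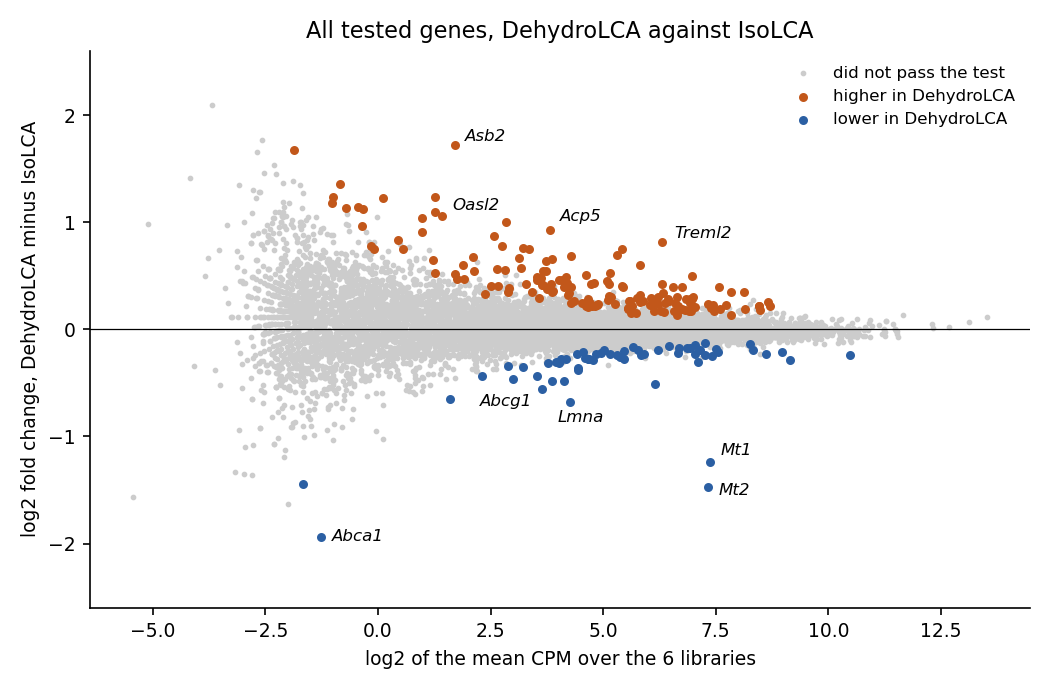
Each point is 1 of the 13044 tested genes, with the log2 of its mean CPM over the 6 libraries on the horizontal axis and its log2 fold change (DehydroLCA minus IsoLCA) on the vertical axis. The 156 genes higher with DehydroLCA are orange and the 62 lower are blue, and the metallothioneins Mt1 and Mt2 stand apart from all other called genes of similar level.

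Each acid was also set against Control. DehydroLCA had 760 called genes (5.83%), 315 higher (2.41%) and 445 lower (3.41%) than Control. IsoLCA had 1284 (9.84%), 486 higher (3.73%) and 798 lower (6.12%). Both comparisons use the same 3 Control libraries, so the counts are given side by side only, and their difference was not tested. Their order depended on the fit. With only the libraries compared in each fit, DehydroLCA had 1031 called genes and IsoLCA had 888, and with the replicate block as well, added after seeing the data, DehydroLCA had 779 and IsoLCA 637. Without Control replicate 2 they were 400 for DehydroLCA and 815 for IsoLCA. The DehydroLCA count was 426 without DehydroLCA replicate 1 and 460 without replicate 3. Of the 156 genes higher with DehydroLCA than IsoLCA, 19 were called higher and 46 lower with DehydroLCA against Control. With IsoLCA against Control, 0 were called higher and 118 lower. Of the 62 lower genes, 13 were higher and 9 lower with DehydroLCA, and 41 higher and 3 lower with IsoLCA. The same libraries chose these genes, so the counts are a description. A rise between the acids need not be a rise above Control.

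The 2 largest differences downward at a level of at least 10 CPM were in the metallothionein genes Mt1 and Mt2. Metallothioneins are small cysteine-rich proteins that bind zinc and copper, and their genes are switched on when the metal-sensing factor MTF1 binds metal response elements in their promoters. Mt1 (chr8:94179089-94180327, plus strand, mm10) had 98.5, 104 and 94.7 CPM in the 3 DehydroLCA libraries, against 244, 228 and 227 CPM in the 3 IsoLCA libraries. Mt2 (chr8:94172618-94173567, plus strand) had 85.9, 88.6 and 81.7 CPM with DehydroLCA, against 247, 227 and 235 CPM with IsoLCA. The groups were far apart at both genes and each library sat close to its own group. The log2 fold change was -1.24 ± 0.06 (SE) for Mt1 and -1.47 ± 0.07 for Mt2, with adjusted p = 2.31e-13 for each. With LCA the means were 103 ± 4.61 CPM for Mt1 and 107 ± 6.97 CPM for Mt2, and in Control 92.7 ± 3.13 and 66.4 ± 5.01 CPM (SD, n = 3 each). At both genes IsoLCA stood above LCA and Control as well as above DehydroLCA. Against Control, Mt1 did not pass with DehydroLCA (0.09 ± 0.06, adjusted p = 0.452) and rose with IsoLCA (1.33 ± 0.06). Mt2 rose with both, by 0.36 ± 0.07 with DehydroLCA and 1.83 ± 0.07 with IsoLCA. Mt1 and Mt2 are close paralogs, and reads shared between them may have been divided.

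The other zinc genes that differed were transporters of the plasma membrane. Slc30a1 encodes ZnT1, the exporter that carries zinc out of the cell. It had 14.5, 14.6 and 14.6 CPM with DehydroLCA, against 20.6, 19.5 and 20.9 CPM with IsoLCA, a fall of -0.48 ± 0.06 (adjusted p = 6.16e-05). The zinc importer gene Slc39a10 moved the other way, with 48.7, 49.2 and 48.8 CPM with DehydroLCA, against 31.1, 26.6 and 32.6 CPM with IsoLCA (0.70 ± 0.08, adjusted p = 3.43e-06). Slc39a4, another importer gene and named after its values were seen, was also higher, at 16.6 ± 0.301 CPM with DehydroLCA and 13 ± 0.531 CPM with IsoLCA (0.35 ± 0.07, adjusted p = 0.0055). Of 21 tested members of the metallothionein and zinc transport list, 2 rose, 3 fell and 16 did not pass. The list's median was -0.02, and 1.67% of all tested genes were called. In Control, Slc30a1 was at 11.7 ± 0.891 CPM and Slc39a10 at 55 ± 2.38 CPM, so at both genes DehydroLCA lay between IsoLCA and Control. All 5 calls held without any of the 6 libraries.

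The promoters of Mt1, Mt2 and Slc30a1 are shown because the metal response element is the known control site of these genes. They run from 250 bases before to 50 bases after the annotated start, read 5′ to 3′ on the gene's strand (plus for each), from RefSeq on GRCm38.p6. Capitals mark the core of the element on either strand, TGCACNC or TGCGCNC.
Mt1 chr8:94178839-94179138: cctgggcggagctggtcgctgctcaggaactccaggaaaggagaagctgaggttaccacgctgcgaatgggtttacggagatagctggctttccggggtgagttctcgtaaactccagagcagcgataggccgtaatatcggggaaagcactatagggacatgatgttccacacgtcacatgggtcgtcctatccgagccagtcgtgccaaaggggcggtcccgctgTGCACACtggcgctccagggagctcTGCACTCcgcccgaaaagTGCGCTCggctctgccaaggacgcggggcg
Mt2 chr8:94172368-94172667: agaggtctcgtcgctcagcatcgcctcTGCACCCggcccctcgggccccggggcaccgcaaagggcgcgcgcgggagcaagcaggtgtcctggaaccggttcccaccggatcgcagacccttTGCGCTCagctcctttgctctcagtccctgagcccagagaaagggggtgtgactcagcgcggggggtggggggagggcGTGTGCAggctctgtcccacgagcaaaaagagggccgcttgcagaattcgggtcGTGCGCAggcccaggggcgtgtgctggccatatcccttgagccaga
Slc30a1 chr1:191906531-191906830: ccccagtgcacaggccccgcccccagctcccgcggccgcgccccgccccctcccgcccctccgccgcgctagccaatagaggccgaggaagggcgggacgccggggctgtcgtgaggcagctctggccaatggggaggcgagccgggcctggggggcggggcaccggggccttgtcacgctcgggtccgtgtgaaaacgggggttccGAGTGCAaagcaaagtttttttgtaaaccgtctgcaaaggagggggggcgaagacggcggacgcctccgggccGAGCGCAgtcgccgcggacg
The core occurred 3 times in the Mt1 window, 4 times in that of Mt2, 2 times in that of Slc30a1 and 0 times in that of Slc39a10. It is a short motif, present in 36.3% of the 9909 promoters that could be matched to tested genes. These matches describe the sequence only, and binding was not measured.

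Among genes that rose, Acp5, which encodes tartrate-resistant acid phosphatase, had the largest change at 10 CPM or more. It had 18.5, 19.8 and 17.2 CPM with DehydroLCA, against 10.3, 10.5 and 8.45 CPM with IsoLCA (0.93 ± 0.08, adjusted p = 5.4e-08). Treml2, a receptor of the TREM family on lymphocytes and myeloid cells, had 103, 99 and 99.8 CPM with DehydroLCA, against 55.8, 56.9 and 58.4 CPM with IsoLCA (0.82 ± 0.04, adjusted p = 4.72e-14). Both genes separated the acids with no overlap, which the rule for ranking these genes required. At Treml2 the SD was 1.89 CPM with DehydroLCA and 1.26 CPM with IsoLCA. In Control they stood higher still, Acp5 at 33.7 ± 2.02 CPM and Treml2 at 137 ± 2.48 CPM (SD, n = 3), and both fell with each acid against Control. DehydroLCA also lay between IsoLCA and Control at Tubb6, a beta tubulin gene, which had 54.2, 53.1 and 54.9 CPM with DehydroLCA, against 34.9, 28.5 and 33 CPM with IsoLCA and 83.6 ± 2.1 CPM in Control. Its difference between the acids was 0.75 ± 0.07 (adjusted p = 1.83e-07). Gfi1, a transcriptional repressor of lymphoid development, did so too, with 24.1 ± 1.12 CPM under DehydroLCA, 15 ± 0.798 CPM under IsoLCA and 34.9 ± 2.06 CPM in Control (0.69 ± 0.07 between the acids, adjusted p = 9.97e-07).

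The remaining rises of this rank ran from 0.57 to 0.76 on the log2 scale. Podnl1, a leucine-rich repeat protein of the matrix, had 11.7 ± 0.488 CPM with DehydroLCA and 6.93 ± 0.544 CPM with IsoLCA (0.76 ± 0.10). Ltb4r1, the high-affinity receptor for leukotriene B4, had 10.8 ± 0.772 CPM with DehydroLCA and 7.28 ± 0.691 CPM with IsoLCA (0.57 ± 0.08). Calls at these genes held without any of the 6 libraries. Rap1gap2, a GTPase activator of Rap1, rose by 0.75 ± 0.16 (adjusted p = 0.0106), but 1 IsoLCA library came close to the DehydroLCA ones: it had 12.5, 13.4 and 12.4 CPM with DehydroLCA, against 6.03, 10.9 and 6.03 CPM with IsoLCA. Its call was lost without DehydroLCA replicate 2 (adjusted p = 0.0518), IsoLCA replicate 1 (0.0948) or IsoLCA replicate 3 (0.0836). Hbegf, a growth factor of the EGF family, had 17.3, 17.1 and 19.5 CPM with DehydroLCA, against 12.8, 7.82 and 13.3 CPM with IsoLCA (0.66 ± 0.15, adjusted p = 0.0207). Its call was lost without DehydroLCA replicate 1 (0.0529), DehydroLCA replicate 3 (0.133) or IsoLCA replicate 2 (0.111).

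**Figure D2:**
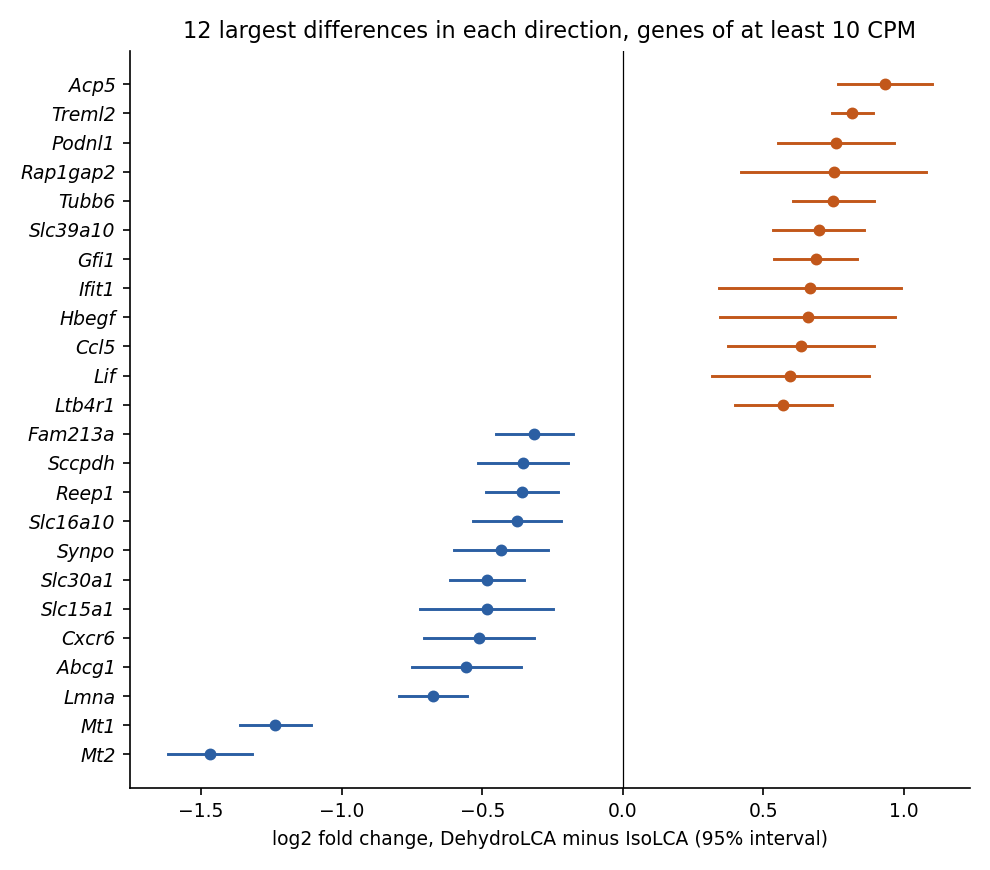
Log2 fold changes (DehydroLCA minus IsoLCA, points) with 95% intervals (lines) for the 12 largest rises (orange) and 12 largest falls (blue) among called genes of at least 10 CPM, 3 libraries per acid. Mt2 and Mt1, at -1.47 and -1.24, lie beyond every other gene shown, and Acp5 leads the rises at 0.93.

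Among the other falls, Lmna, the gene of the nuclear lamins A and C, had 16.4, 14.1 and 13.9 CPM with DehydroLCA, against 23.7, 23.1 and 24.2 CPM with IsoLCA (-0.67 ± 0.06, adjusted p = 5.4e-08). Both acids raised Lmna above Control, which had 6.97 ± 0.444 CPM, by 1.09 ± 0.07 with DehydroLCA and 1.76 ± 0.06 with IsoLCA. Cxcr6, a chemokine receptor of tissue-resident T cells, had 64.5, 58.8 and 52.8 CPM with DehydroLCA, against 82.6, 95.6 and 73.2 CPM with IsoLCA (-0.51 ± 0.09, adjusted p = 0.00299). Against Control it rose with IsoLCA (0.73 ± 0.10) and did not pass with DehydroLCA (0.22 ± 0.10, adjusted p = 0.208). Synpo, an actin-associated protein, fell by 0.43 on the log2 scale and Reep1, a protein that shapes the endoplasmic reticulum, fell by 0.36. Calls at these 4 genes held without any of the 6 libraries. Also lower were Slc16a10, an aromatic amino acid transporter (-0.38 ± 0.08), Slc15a1, a peptide transporter (-0.48 ± 0.11), Sccpdh (-0.35 ± 0.08) and Fam213a, a redox protein (-0.32 ± 0.07). Each of these lost its call without DehydroLCA replicate 3 (adjusted p = 0.0514 for Slc16a10, 0.13 for Slc15a1, 0.0905 for Sccpdh and 0.0876 for Fam213a) and without IsoLCA replicate 1 (0.0583, 0.107, 0.0948 and 0.0958 in that order). Slc16a10, Slc15a1 and Sccpdh also lost it without DehydroLCA replicate 1 (0.0529, 0.0675 and 0.0621), Slc15a1 and Fam213a without DehydroLCA replicate 2 (0.0959 and 0.0589), and Slc15a1 and Sccpdh without IsoLCA replicate 3 (0.119 and 0.0514).

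Among sterol-regulated genes, both cholesterol exporters were lower with DehydroLCA. Abcg1 and Abca1 encode the exporters that pass cholesterol to lipoproteins, and both are targets of the liver X receptors. Abcg1 had 9.07, 9.88 and 11.4 CPM with DehydroLCA, against 14.8, 14.8 and 15.2 CPM with IsoLCA (-0.56 ± 0.09, adjusted p = 0.00123). Abca1 was scarce, with 0.21, 0.25 and 0.0577 CPM with DehydroLCA, against 0.601, 0.67 and 0.714 CPM with IsoLCA (-1.94 ± 0.33, adjusted p = 0.0013). Both lay below Control, where Abcg1 averaged 27.6 ± 0.469 CPM and Abca1 0.857 ± 0.143 CPM. Abcg1 fell against Control with each acid, by 1.44 with DehydroLCA and 0.89 with IsoLCA on the log2 scale. Abca1 fell against Control with DehydroLCA (-2.30 ± 0.32) and did not pass with IsoLCA (-0.36 ± 0.23, adjusted p = 0.396).

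Of 19 tested members of the liver X receptor list, 1 rose, 4 fell and 14 did not pass. Their median was -0.09, and 1.67% of all tested genes were called. Besides both exporters, the falls were Scd2, a fatty acid desaturase (-0.24 ± 0.05), and Arl4c, a small GTPase (-0.13 ± 0.03). The rise was Soat2, which esterifies cholesterol (0.40 ± 0.10). Arl4c and Soat2 were named after their values were seen. Scd2 had 1263, 1347 and 1324 CPM with DehydroLCA, against 1529, 1512 and 1598 CPM with IsoLCA, and lost its call without DehydroLCA replicate 1 (adjusted p = 0.0657). Arl4c lost its call without any of the 6 libraries (0.0766 to 0.203), and Soat2 without any but IsoLCA replicate 2 (0.0555 to 0.236). In the fatty acid synthesis and desaturation list, 1 of 24 rose and 2 fell, with a median of -0.07. The rise was Dgat1, which makes triglycerides, at 22.1 ± 0.885 CPM with DehydroLCA and 16.9 ± 0.736 CPM with IsoLCA (0.39 ± 0.08). The falls were Scd2 and Acsl3, an acyl-CoA synthetase (-0.22 ± 0.05). Dgat1 lost its call without DehydroLCA replicate 3 (0.0778) or IsoLCA replicate 1 (0.0698). Acsl3 lost it without any but IsoLCA replicate 2 (0.0566 to 0.106).

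None of the 26 tested cholesterol synthesis and uptake genes passed edgeR's test, 4 had an unadjusted p under 0.05, DESeq2 called 1 (Dhcr7), and their median was -0.03. Hmgcs1, an early enzyme of the pathway, had 364 ± 15.9 CPM with DehydroLCA and 385 ± 13.5 CPM with IsoLCA, with a 95% interval of the log2 difference from -0.20 to 0.04. For the desaturase gene Scd1, the interval was -0.37 to 0.04. In the fatty acid oxidation list the 1 call of 27 was Pparg, a lipid-sensing nuclear receptor. It had 3.21, 3.13 and 3.52 CPM with DehydroLCA, against 1.77, 1.1 and 1.7 CPM with IsoLCA (1.10 ± 0.16, adjusted p = 0.000216), a call that held without any of the 6 libraries.

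A group of interferon-stimulated genes rose with DehydroLCA. Such genes make antiviral proteins, and many are switched on when the interferon-activated complex ISGF3 binds an interferon-stimulated response element. Of 33 tested members, 6 rose and 0 fell, 27 did not pass, 29 had a positive log2 fold change (against 52.5% of all tested genes), and the median was 0.23. Over all tested genes, 1.67% were called. Of the 33, 21 had an unadjusted p under 0.05 (against 12.6% of all tested genes). DESeq2 called 9, Irf9, Parp14 and Rtp4 besides the 6. Isg15, a ubiquitin-like modifier, had 9.1, 9.04 and 7.56 CPM with DehydroLCA, against 5.8, 4.69 and 4.53 CPM with IsoLCA (0.78 ± 0.14, adjusted p = 0.0027). Oasl1 and Oasl2 encode relatives of the oligoadenylate synthetases. Oasl2 had 3.72, 3.28 and 3.92 CPM with DehydroLCA, against 1.86, 1.67 and 1.72 CPM with IsoLCA (1.06 ± 0.16, adjusted p = 0.000262). Oasl1 had 2.52, 2.63 and 2.8 CPM with DehydroLCA, against 1.54, 1.13 and 1.21 CPM with IsoLCA (1.03 ± 0.15, adjusted p = 0.000302). All DehydroLCA libraries lay above all IsoLCA libraries at these 3 genes, as at all 156 called rises, so this adds no support.

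Xaf1, an apoptosis-linked interferon target, had 13.4 ± 0.699 CPM with DehydroLCA and 9.6 ± 0.808 CPM with IsoLCA (0.49 ± 0.08). Ifih1, the RNA sensor MDA5, named after its values were seen, had 18.8 ± 0.547 CPM with DehydroLCA and 13.7 ± 0.361 CPM with IsoLCA (0.46 ± 0.09). Ifit1, which binds foreign RNA, had 10.5, 10.9 and 11 CPM with DehydroLCA, against 7.86, 5.81 and 6.72 CPM with IsoLCA (0.66 ± 0.16, adjusted p = 0.0247). Its call was lost without any library but IsoLCA replicate 1 (0.0624 to 0.115), while the other 5 held. Against Control, 7 of the 33 members were called higher and 3 lower with DehydroLCA, and 0 higher and 11 lower with IsoLCA. All tested genes had 2.41% higher and 3.41% lower with DehydroLCA, and 3.73% higher and 6.12% lower with IsoLCA. Ifit1 fell with IsoLCA against Control (adjusted p = 0.0268) and did not pass with DehydroLCA (0.749). Isg15, Oasl1 and Oasl2 rose with DehydroLCA against Control (0.50 ± 0.14, 0.79 ± 0.15 and 0.86 ± 0.16). None of the 3 passed with IsoLCA (adjusted p = 0.294, 0.438 and 0.582). LCA had the highest level of the 4 groups at these genes, with Isg15 at 15.8 ± 0.628 CPM, against 6.07 ± 1.53 CPM in Control. Among the 19 GTPases and regulators induced by interferon gamma, 0 passed with edgeR or DESeq2 between the acids, 3 had an unadjusted p under 0.05, and the list's median was 0.05.

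The promoters of Isg15 and Ifit1 show how the element lies before an interferon-stimulated gene. The windows and source are as above, Isg15 on the minus and Ifit1 on the plus strand, and capitals mark the letters GAAA, any 2 bases and GAAA again, on either strand.
Isg15 chr4:156200769-156201068: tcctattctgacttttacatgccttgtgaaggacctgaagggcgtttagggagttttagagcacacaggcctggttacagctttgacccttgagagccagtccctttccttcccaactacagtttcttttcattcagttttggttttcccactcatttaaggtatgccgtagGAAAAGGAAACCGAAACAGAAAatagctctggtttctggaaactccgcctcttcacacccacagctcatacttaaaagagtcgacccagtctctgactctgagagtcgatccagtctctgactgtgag
Ifit1 chr19:34640639-34640938: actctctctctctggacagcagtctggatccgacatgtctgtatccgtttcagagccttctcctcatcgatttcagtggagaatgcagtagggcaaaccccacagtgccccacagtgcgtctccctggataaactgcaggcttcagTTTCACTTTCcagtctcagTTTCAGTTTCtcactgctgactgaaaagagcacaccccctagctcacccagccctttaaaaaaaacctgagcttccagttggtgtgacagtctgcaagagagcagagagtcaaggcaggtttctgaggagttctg
There were 3 overlapping matches in the Isg15 window, 2 in that of Ifit1, 1 in that of Ifih1 and 0 in those of Xaf1, Oasl1 and Oasl2. Of the 9909 matched promoters, 3.22% held the motif. A window without a match says only that these letters are not in it.

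**Figure D3:**
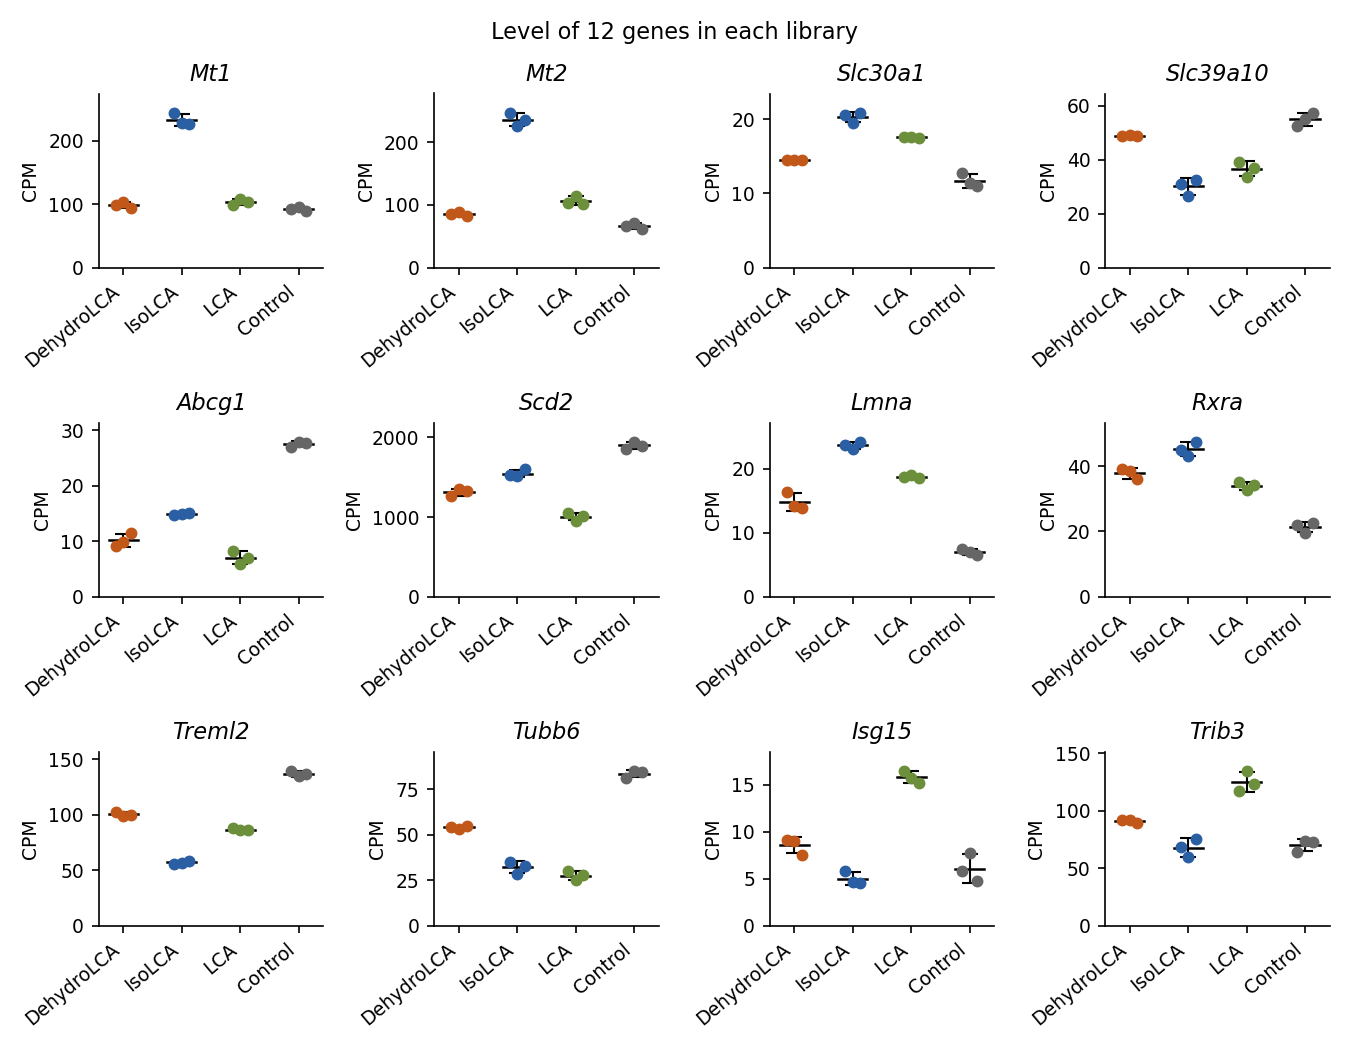
CPM in each library (points) of 12 genes with DehydroLCA, IsoLCA, LCA and Control, with the mean and SD of 3 libraries (black lines). IsoLCA stands above the other groups at Mt1 and Mt2, DehydroLCA lies between IsoLCA and Control at Slc39a10, Treml2 and Tubb6, and LCA is highest at Isg15 and Trib3.

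In the integrated stress response the factor ATF4 is made while general protein synthesis is curbed. Of 43 tested members 3 rose, 0 fell and 40 did not pass, beside 1.67% of all tested genes called. A positive log2 fold change was seen at 39 (against 52.5% of all tested genes), and the median was 0.14. Of the 43, 24 had an unadjusted p under 0.05 (against 12.6% of all tested genes). DESeq2 called 5, Shmt2 and Slc6a9 besides these 3. Trib3, a pseudokinase that is an ATF4 target, had 92.1, 92.3 and 89.4 CPM with DehydroLCA, against 68.7, 59.4 and 75.6 CPM with IsoLCA (0.43 ± 0.07, adjusted p = 0.00145). Against Control, at 70.1 ± 5.12 CPM, it rose with DehydroLCA (0.38 ± 0.07) and did not pass with IsoLCA (adjusted p = 0.798). Ddit4, an inhibitor of the growth kinase mTORC1, had 125 ± 2.14 CPM with DehydroLCA and 103 ± 4.59 CPM with IsoLCA (0.28 ± 0.04). Against Control it fell with both acids (-0.28 ± 0.04 with DehydroLCA and -0.56 ± 0.04 with IsoLCA). Atf3, a stress-induced factor, had 27.8, 29.4 and 29.9 CPM with DehydroLCA, against 20.4, 16.2 and 24.5 CPM with IsoLCA (0.50 ± 0.12, adjusted p = 0.0233). Against Control, Atf3 did not pass with DehydroLCA (adjusted p = 0.751) and fell with IsoLCA (-0.41 ± 0.12, adjusted p = 0.0247). Of the 43 members, 5 were called higher and 2 lower with DehydroLCA against Control, and 0 higher and 5 lower with IsoLCA. The Atf3 call between the acids was lost without any library but IsoLCA replicate 3 (0.0529 to 0.136), while those of Trib3 and Ddit4 held. Atf5 and Cth, other ATF4 targets, did not pass, with 95% intervals of 0.01 to 0.35 and -0.13 to 0.59. None of the 23 endoplasmic reticulum folding genes (median -0.02) and none of the 20 heat shock genes passed with edgeR. An unadjusted p under 0.05 was reached by 7 and 0 of them, and DESeq2 called 1 folding gene, Pdia6.

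Ddit4 also counts among the glycolysis and hypoxia-responsive genes, of which 4 of 36 rose and 0 fell, with a median of 0.06. Over all tested genes 1.67% were called. With DehydroLCA against Control, 0 of the 36 were called higher and 21 lower, and with IsoLCA 0 higher and 27 lower. Hif1a, the oxygen-regulated factor of that programme, had 431, 456 and 456 CPM with DehydroLCA, against 392, 363 and 397 CPM with IsoLCA (0.22 ± 0.04, adjusted p = 0.00494), and its call held without any of the 6 libraries. Slc2a3, a glucose transporter, had 255 ± 14.8 CPM with DehydroLCA and 201 ± 7.41 CPM with IsoLCA (0.35 ± 0.09, adjusted p = 0.0418), and lost its call without any of the 6 (0.0621 to 0.186). Mxi1, which antagonises Myc and was named after its values were seen, was the other rise (0.25 on the log2 scale), lost without any library but IsoLCA replicate 3 (0.078 to 0.222). Hif1a and Slc2a3 fell against Control with DehydroLCA (-0.18 ± 0.04 and -0.42 ± 0.09) and with IsoLCA (-0.40 ± 0.04 and -0.77 ± 0.09). Among 75 nuclear-encoded respiratory chain genes 1 fell, Cox7b of complex IV (-0.15 ± 0.04, adjusted p = 0.04), and the median was -0.04. The Cox7b call was lost without any library but IsoLCA replicate 2 (0.0626 to 0.261). In the NRF2 and antioxidant list, 1 of 30 rose and 1 fell. Osgin1, a stress-induced growth inhibitor, had 0.806 ± 0.148 CPM with DehydroLCA and 0.308 ± 0.0746 CPM with IsoLCA (1.36 ± 0.29). Osgin1 fell against Control with both acids (-1.64 ± 0.20 with DehydroLCA and -3.00 ± 0.23 with IsoLCA). Prdx1, a peroxiredoxin, had 363 ± 16.8 CPM with DehydroLCA and 425 ± 20.3 CPM with IsoLCA (-0.23 ± 0.06). Osgin1 lost its call without DehydroLCA replicate 3 (0.0921) or IsoLCA replicate 1 (0.0754), and Prdx1 without any of DehydroLCA replicates 2 and 3 and IsoLCA replicates 1 and 3 (0.0603 to 0.229).

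In lists of T cell signalling genes, all calls but Pim2 were rises. Over all tested genes, 1.2% were called higher and 0.475% lower. Of 29 genes induced by T cell receptor signalling 3 rose and 0 fell (median 0.11), of 21 NF-kB subunit and feedback genes 3 rose and 0 fell (median 0.12), and of 31 cytokine receptor and STAT signalling genes 4 rose and 1 fell (median 0.11). Junb, a subunit of the factor AP-1, had 140, 141 and 145 CPM with DehydroLCA, against 119, 104 and 122 CPM with IsoLCA (0.30 ± 0.06, adjusted p = 0.0055). Nfkbie, an inhibitor that NF-kB itself induces, had 20.8 ± 0.46 CPM with DehydroLCA and 16.7 ± 0.681 CPM with IsoLCA (0.32 ± 0.06, adjusted p = 0.00238). Il21r, the receptor for interleukin 21, had 131, 128 and 136 CPM with DehydroLCA, against 111, 111 and 110 CPM with IsoLCA (0.25 ± 0.05, adjusted p = 0.00358). These 3 calls held without any of the 6 libraries. Irf8 (0.30 ± 0.07), the NF-kB inhibitor Nfkbia (0.31 ± 0.07) and the NF-kB cofactor Bcl3 (0.35 ± 0.08) also rose, and Pim2, a survival kinase, fell (-0.29 ± 0.06). The other rises in cytokine signalling, besides Gfi1, were Ifngr1 (0.23) and Il12rb1 (0.19 on the log2 scale), both named after their values were seen and they lost their calls without any library but IsoLCA replicate 2 (Ifngr1, adjusted p = 0.0697 to 0.187) or any but DehydroLCA replicate 2 (Il12rb1, 0.0611 to 0.197). Irf8 and Bcl3 lost their calls without DehydroLCA replicate 3 (adjusted p = 0.0906 and 0.225), IsoLCA replicate 1 (0.0531 and 0.0991) or IsoLCA replicate 2 (0.0993 and 0.11). Nfkbia lost its call without any library but IsoLCA replicate 3 (0.0587 to 0.114), and Pim2 without DehydroLCA replicate 1 (0.0715), IsoLCA replicate 1 (0.0624) or IsoLCA replicate 3 (0.0881).

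Of 14 secreted chemokines and cytokines, 3 rose and 0 fell, with a median of 0.17, beside 1.67% of all tested genes called. Ccl5, a chemokine that draws T cells, had 15.6, 17.4 and 15.7 CPM with DehydroLCA, against 10.9, 10.3 and 10.1 CPM with IsoLCA (0.63 ± 0.13, adjusted p = 0.00627), a call that held without any of the 6 libraries. Lif and Osm, cytokines of the interleukin 6 family, rose as well. In Control, Lif stood higher, at 103 ± 3.96 CPM, and it fell with each acid against Control. Lif had 62.2, 67.7 and 73.3 CPM with DehydroLCA, against 45.2, 34.8 and 54 CPM with IsoLCA (0.60 ± 0.13, adjusted p = 0.0177), and Osm had 73.8 ± 2.94 CPM with DehydroLCA and 60.1 ± 4.9 CPM with IsoLCA (0.30 ± 0.06). IsoLCA replicate 2 was the lowest library at both, and without it neither passed (adjusted p = 0.112 for Lif and 0.0969 for Osm). Both also lost the call without DehydroLCA replicate 3 (0.121 and 0.092), Lif without DehydroLCA replicate 2 (0.0578) or IsoLCA replicate 1 (0.0687), and Osm without DehydroLCA replicate 1 (0.0675).

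Of 18 inhibitory receptor and exhaustion genes, 1 rose and 1 fell, beside 1.67% of all tested genes called. Ctla4, an inhibitory receptor, had 310, 320 and 312 CPM with DehydroLCA, against 245, 262 and 235 CPM with IsoLCA (0.35 ± 0.06, adjusted p = 0.00113), and its call held without any of the 6 libraries. Tox, a factor of exhausted T cells, had 23.1 ± 1.41 CPM with DehydroLCA and 27.9 ± 0.988 CPM with IsoLCA (-0.27 ± 0.06). The Tox call was lost without DehydroLCA replicate 1 (0.106), DehydroLCA replicate 3 (0.092) or IsoLCA replicate 3 (0.0775). Pdcd1 and Havcr2, which encode the inhibitory receptors PD-1 and TIM-3, did not pass, with 95% intervals of -0.11 to 0.28 and -0.24 to 0.11. In the TNF family list 1 of 17 rose, Tnfrsf8, which encodes CD30 (15.2 ± 0.612 CPM with DehydroLCA and 10.3 ± 1.64 CPM with IsoLCA, 0.55 ± 0.11). In the type 17 list, which follows the helper programme that both acids are known to restrain, 2 of 11 rose. They were Ltb4r1, described above, and Tmem176b (0.51 ± 0.12, adjusted p = 0.0219), a transmembrane protein gene that lost its call without any library but IsoLCA replicate 3 (0.0547 to 0.131).

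Beside 1.67% of all tested genes called, 2 of 26 cytotoxic granule and effector genes rose and 0 fell, with a median of 0.05. They were Prdm1, a regulator of effector differentiation (21.2 ± 1.21 CPM with DehydroLCA and 17.9 ± 1.26 CPM with IsoLCA, adjusted p = 0.0329), and Gzma, a granule protease (14.5 ± 1.58 CPM with DehydroLCA and 11 ± 1.08 CPM with IsoLCA, adjusted p = 0.04). Both lost the call without DehydroLCA replicate 3 (0.198 and 0.129), IsoLCA replicate 1 (0.226 and 0.102) or IsoLCA replicate 3 (0.0603 and 0.172), Prdm1 also without DehydroLCA replicate 2 (0.147) and Gzma without DehydroLCA replicate 1 (0.227). Against Control, at 30.5 ± 0.231 CPM, Prdm1 fell with DehydroLCA (-0.52 ± 0.06) and with IsoLCA (-0.77 ± 0.06). Gzma fell against Control with IsoLCA (-0.68 ± 0.10) and did not pass with DehydroLCA (adjusted p = 0.136). Gzmb, the main granzyme, had 3412, 3308 and 3373 CPM with DehydroLCA, against 3256, 2729 and 3226 CPM with IsoLCA. The groups did not overlap, but the difference did not pass, with a 95% interval of -0.04 to 0.31. The intervals were -0.08 to 0.35 for the pore protein gene Prf1, -0.49 to 0.35 for Ifng, 0.05 to 0.28 for the effector factor gene Tbx21 and 0.12 to 0.58 for Egr3, none of which passed. For Tcf7, a gene of naive and memory T cells, it was -0.53 to 0.01, and 0 of 24 genes of that list passed with edgeR or DESeq2, with 3 at an unadjusted p under 0.05. For Irf4 and Nr4a1, which report T cell receptor signal strength, they were -0.03 to 0.12 and -0.06 to 0.26.

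Of the 15 tested bile acid receptors, partners and targets, 1 fell: Rxra, the shared partner of the farnesoid X, vitamin D and liver X receptors. It had 39.2, 38.5 and 36 CPM with DehydroLCA, against 44.9, 43.2 and 47.4 CPM with IsoLCA (-0.26 ± 0.06, adjusted p = 0.0357), and lost its call without any library but IsoLCA replicate 2 (0.0673 to 0.236). Both acids raised it above Control (21.3 ± 1.64 CPM), by 0.83 ± 0.07 with DehydroLCA and 1.08 ± 0.07 with IsoLCA. Vdr, the vitamin D receptor, had 3.22 ± 0.0809 CPM with DehydroLCA and 3.8 ± 0.511 CPM with IsoLCA and did not pass (interval -0.54 to 0.07). In the nuclear lamina and cytoskeleton list, Tubb6 rose, Lmna fell and 38 of 40 did not pass. The antigen presentation list had 1 rise of 19, H2-Q7, and the glucocorticoid and other steroid receptor list 1 of 21, Ddit4. H2-Q7, whose entry covers nearly the same interval as that of H2-Q9, lost its call without DehydroLCA replicate 3 (0.0839) or IsoLCA replicate 1 (0.0749). Among markers of other cells, Zbtb7b, a factor of CD4+ T cells, rose (50.1 ± 1.38 CPM with DehydroLCA and 43.6 ± 2.43 CPM with IsoLCA, adjusted p = 0.034). It lost its call without any library but IsoLCA replicate 3 (0.0555 to 0.194), and Cd4 itself was under 1 CPM in every library of the pair. Gzma was the 1 call of 10 NK cell markers.

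With edgeR no gene passed among 26 p53 target and apoptosis genes, 34 DNA replication and S phase genes, 32 mitosis and G2/M genes, 31 Myc and ribosome biogenesis genes, 37 lysosome and autophagy genes, 16 T cell receptor complex and coreceptor genes, 3 B cell markers, 9 myeloid markers or 4 stromal and erythroid markers. In the same order, 7, 4, 3, 2, 3, 5, 0, 2 and 1 members had an unadjusted p under 0.05, and DESeq2 called Ccng1 of the p53 list, Myc of the Myc and ribosome biogenesis list, Ctsc of the lysosome list, and Cd3g and Ptprc of the T cell receptor complex. Their medians ran from -0.07 for the T cell receptor complex to 0.14 for the stromal and erythroid markers. Bbc3, a p53 target that promotes apoptosis, had an interval of -0.22 to 0.14. Over all lists, 53 of 860 tested members were called (6.16%), beside 1.67% of all tested genes, and 165 of the 218 called genes were in no list. The lists were chosen with earlier results of these data known, so the higher share is a description and no test of enrichment. The number of list genes called was 34 without DehydroLCA replicate 1, 28 without DehydroLCA replicate 3 and 32 without IsoLCA replicate 1.

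**Figure D4:**
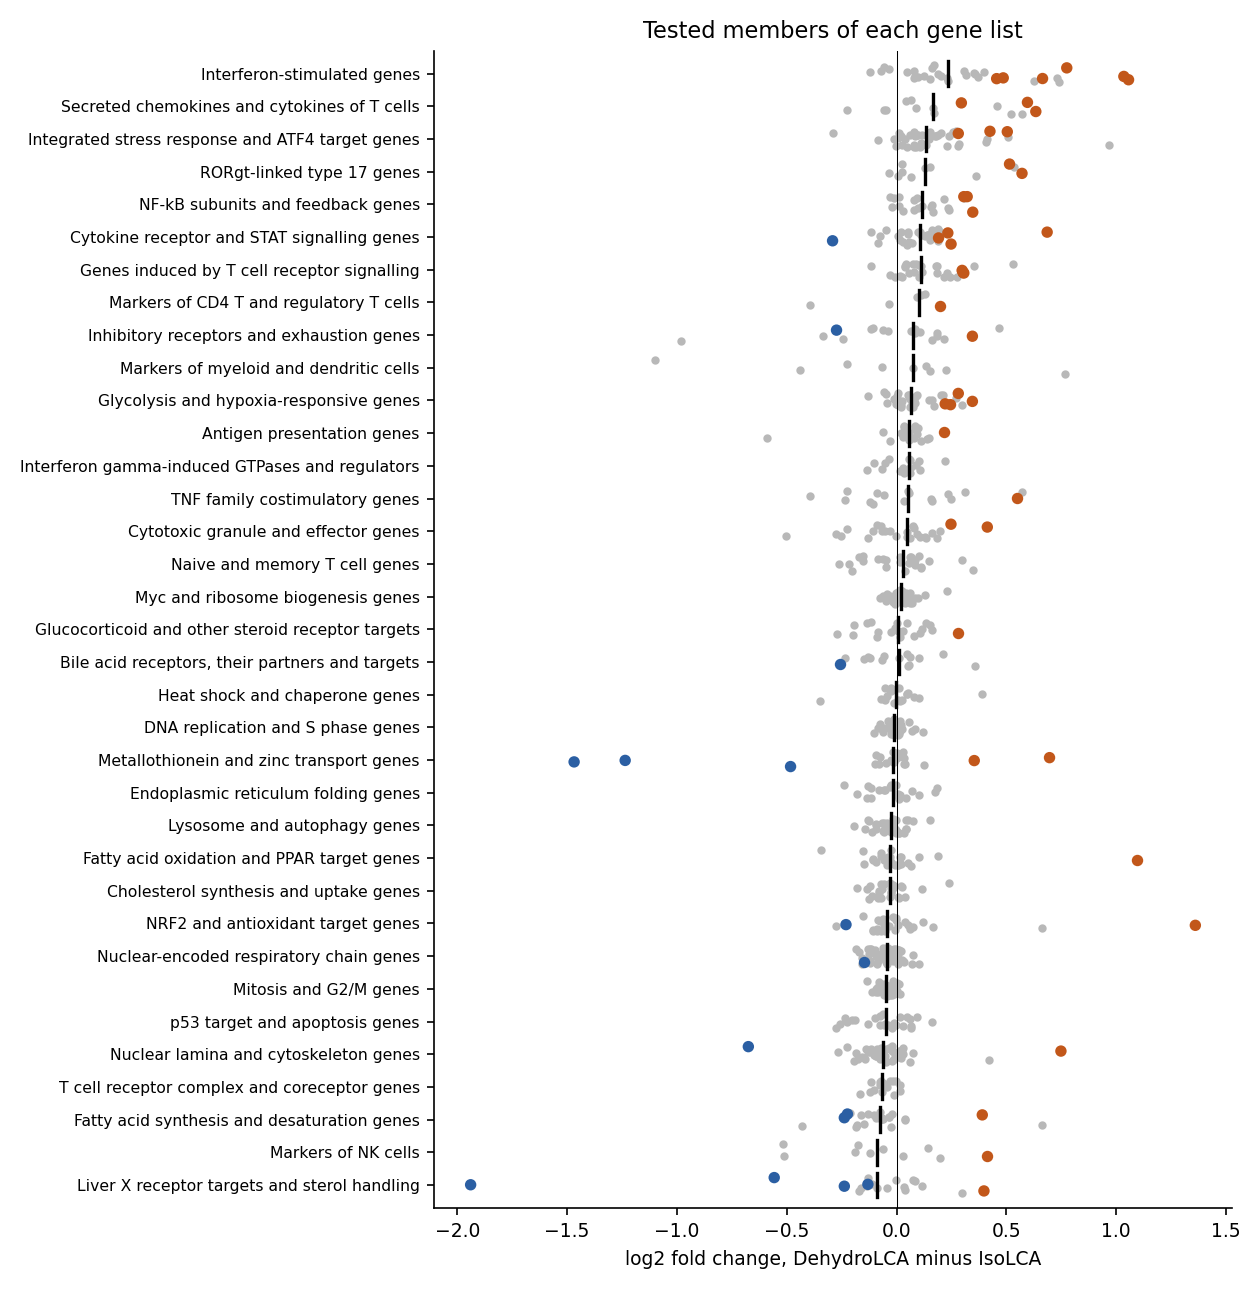
Log2 fold change (DehydroLCA minus IsoLCA) of the tested members of each gene list with 5 or more tested members, ordered by the list's median (black bar). Genes that passed the test are orange (higher) or blue (lower) and the others are grey, and the interferon-stimulated list, with 6 called genes and a median of 0.23, is at the top.

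LCA, from which both acids derive, and the other groups were placed on the 218 genes by their mean CPM, counting a mean as nearer however small the margin. The contrast that chose the genes did not compare these libraries, but they entered the joint fit, its filter and its estimate of spread. The positions are a description with no test. LCA lay nearer to DehydroLCA at 137 of the 218 genes (62.8%). It did so at 83 of the 156 genes that were higher with DehydroLCA (53.2%) and at 54 of the 62 that were lower (87.1%). Abcg1, Mt1 and Mt2 are examples on the lower side and Tubb6 is one where LCA, at 27.5 ± 2.46 CPM, lay beyond IsoLCA. The log2 fold change of LCA minus Control had the same sign as that of DehydroLCA minus IsoLCA at 82 of the 218. Their Pearson correlation over these genes was -0.19. Over all 13044 tested genes the sign was the same at 7666 and the correlation was 0.07. Control lay nearer to DehydroLCA at 175 genes (80.3%), TCA at 165 (75.7%), TCDCA at 157 (72%) and UDCA at 147 (67.4%). IsoAlloLCA, which shares the orientation of the hydroxyl with IsoLCA and differs in how the first rings are joined, was nearer to DehydroLCA at 73 (33.5%). At 110 of the 218, IsoAlloLCA lay beyond IsoLCA, farther still from DehydroLCA.

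**Figure D5:**
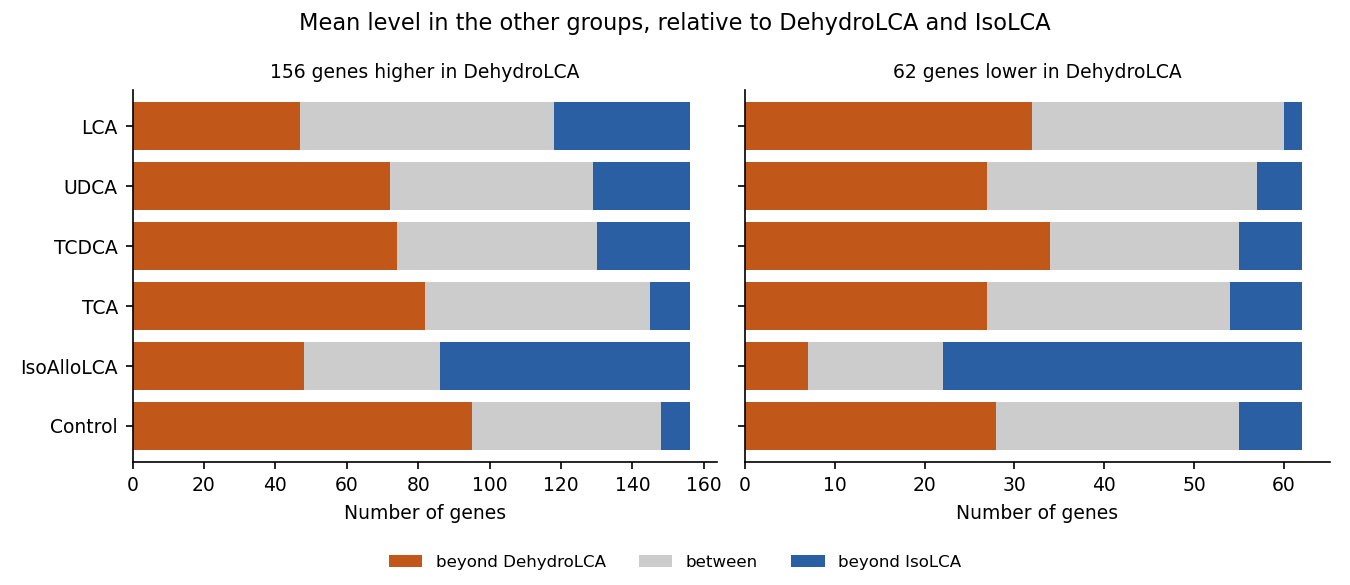
Number of the 156 genes higher with DehydroLCA (left) and the 62 lower (right) at which each group's mean CPM lay beyond DehydroLCA (orange), between the acids (grey) or beyond IsoLCA (blue). Control lay beyond DehydroLCA at 95 of the 156 genes, and IsoAlloLCA beyond IsoLCA at 40 of the 62.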

How the data were processed

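The authors deposited 1 table of 24537 genes, 1 RefSeq transcript each, counted over exons on mm10 with HOMER and not normalized, per the file headers. STAR, DESeq2 and GRCm38 are further names in the submitters' processing notes, without versions. The deposited numbers are expected counts that move in steps of 0.5 (29.43% not whole), rounded upward here before the count test, although the design had assumed whole counts. No strand option is given in the header, so reads of overlapping, antisense and near-identical genes may be mixed or divided. Totals ran from 25998051 to 41024340.5 counts in genes over the 24 libraries. Every pair of replicates differed beyond sampling noise, and none was treated as a duplicate.

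The 24 libraries were fitted together in R 4.3.3 with edgeR 4.0.16 (filterByExpr, TMM, glmQLFit, glmQLFTest), no block and 1 coefficient for each group, which gives all groups a shared spread (16 residual degrees of freedom). A gene was called where its p, adjusted by Benjamini-Hochberg over 13044 tested genes, was under 0.05. CPM are TMM-scaled except in the marker sums. The SE of a log2 fold change is its size divided by the square root of F, and 95% intervals rest on it. The fit was also run on simulated counts with known changes, and those results are not reported here. DESeq2 1.42.0 was an alternative.

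The pair, the 37 gene lists and the rule for named genes were chosen with earlier results of these data known, so list counts are descriptions with no test. The rule took, in each direction, the 12 called genes of largest change with an established symbol, at least 10 CPM with either acid and no overlap between libraries, the 3 called members of each list with the smallest adjusted p, and a fixed set of 30 genes. Some genes named by the rule are not reported here. Promoters are from RefSeq (GRCm38.p6, the same assembly as mm10), and 9909 of the tested genes were matched by symbol.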

Additional observations from a re-analysis of the deposited data

How the results depend on the processing

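Of the 218 called genes, 195 were tested with the 5 CPM filter and all were tested under the other alternatives. Among 16 alternatives, no call changed sign where it was tested, and 74 (57 higher, 17 lower) were called under every alternative that tested them. Of 58 named called genes, 30 were. The count of 218 was 213 with RLE size factors, 219 with upper-quartile scaling, 270 with no filter on low counts, 224 with a filter of 5 CPM, 215 with counts rounded down, 191 with only the 6 libraries compared, 280 with DESeq2, and 231 with a correction for GC content and transcript length, added after seeing the data. Leaving out 1 library gave 98 to 182 calls. Beyond 1.5-fold, the 42 calls became 22 with the 5 CPM filter, which tests fewer scarce genes, and 27 to 42 without 1 library. DehydroLCA against Control had 400 to 625 calls without 1 library, and IsoLCA against Control had 815 to 1198. List genes called ran from 28 to 51. LCA lay nearer to DehydroLCA at 135 genes with RLE size factors.

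With the replicate number as a block, 283 genes were called. Deviations of same-numbered DehydroLCA and IsoLCA libraries correlated at 0.0685, -0.174 and 0.156, and not every library correlated best with its own number. With 3 libraries per acid, these values cannot show whether same-numbered libraries were paired. With only the libraries compared and the replicate block, chosen after seeing the data, 210 were called, and DehydroLCA against Control had 779 instead of 760, and IsoLCA against Control 637 instead of 1284. With only the libraries compared and no block, DehydroLCA had 1031 and IsoLCA 888, so the order of these counts turned round. The cause was not tested. Genes with few counts limit precision: 37 of the genes higher and 6 of those lower were under 10 CPM with both acids.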

Other observations

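The values in these paragraphs concern genes and families chosen after their values were seen, so they carry no weight as tests. Beside the counts of calls in families, 1.67% of all tested genes were called. The GIMAP genes encode GTPases of the immunity-associated family that support lymphocyte survival, and they lie side by side on chromosome 6. All 8 tested members had a positive log2 fold change (median 0.23, beside 0.01 for all tested genes). With DehydroLCA, 5 rose: Gimap3, Gimap4, Gimap5, Gimap7 and Gimap9. Gimap3 had 207, 210 and 230.0 CPM with DehydroLCA, against 151, 179 and 163 CPM with IsoLCA (0.39 ± 0.06, edgeR adjusted p = 0.000317). Gimap7 had 90.6, 90.7 and 85.9 CPM with DehydroLCA, against 70.3, 73.6 and 67.6 CPM with IsoLCA (0.34 ± 0.05, adjusted p = 0.000112). In Control both stood higher, at 365 ± 5.55 CPM for Gimap3 and 134 ± 6.29 CPM for Gimap7, so DehydroLCA lay between IsoLCA and Control. The calls of Gimap4, Gimap5 and Gimap9 were lost without 1 or more libraries, IsoLCA replicate 1 for Gimap4 (0.0741) and Gimap5 (0.0543), IsoLCA replicate 3 for Gimap4 (0.11) and Gimap9 (0.0533), DehydroLCA replicate 1 for Gimap4 (0.0703) and Gimap9 (0.0726), and DehydroLCA replicate 2 for Gimap4 (0.0822).

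Of 11 tested genes of the AP-1 family, 5 rose (Junb, Jun, Atf3, Batf3 and Jdp2) and 0 fell, with a median of 0.30. Jun had 17, 14.9 and 15.4 CPM with DehydroLCA, against 11, 10.6 and 10.8 CPM with IsoLCA (0.54 ± 0.11), and lost its call without DehydroLCA replicate 1 (adjusted p = 0.0555). Batf3 lost its call without DehydroLCA replicate 3 (0.0876) or IsoLCA replicate 2 (0.0627), and Jdp2 without DehydroLCA replicates 1 and 3 (0.119 and 0.114) or IsoLCA replicates 1 and 2 (0.0698 and 0.0637). Batf, the partner that acts with Irf4 in T cells, had 31.5 ± 1.3 CPM with DehydroLCA and 30.9 ± 1 CPM with IsoLCA (95% interval -0.09 to 0.14). The H2-Q class Ib genes, relatives of the classical major histocompatibility genes, had 5 rises among 9 tested (H2-Q5, H2-Q6, H2-Q7, H2-Q8 and H2-Q9). The entries of H2-Q7 and H2-Q9 cover nearly the same interval, as do those of H2-Q6 and H2-Q8, so neither pair can be told apart and the 5 rises are at 3 loci. H2-Q5, a pseudogene entry, lost its call without DehydroLCA replicate 1 (0.117) or 3 (0.265), or IsoLCA replicate 1 (0.265) or 3 (0.0677). H2-Q7 and H2-Q9 lost theirs without DehydroLCA replicate 3 (0.0839 for each) or IsoLCA replicate 1 (0.0749 for each). The calls of H2-Q6 and H2-Q8 held without any of the 6 libraries.

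Among called genes of any level the largest rise was Asb2, the substrate-binding subunit of a ubiquitin ligase. It had 7.48, 3.81 and 3.72 CPM with DehydroLCA, against 1.54, 1.64 and 1.38 CPM with IsoLCA (1.72 ± 0.22, adjusted p = 3.95e-05). DehydroLCA replicate 1 stood apart from the other 2, and the call held without it. Control averaged 4.53 ± 0.561 CPM, and Asb2 did not pass between DehydroLCA and Control (adjusted p = 0.76). Hic1, a transcriptional repressor, had 3.39 ± 0.551 CPM with DehydroLCA and 1.43 ± 0.254 CPM with IsoLCA (1.24 ± 0.20), and its call held without any of the 6 libraries.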
